A study of Mus musculus with 16 samples.

Results

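The gel-forming mucins and core mucus proteins are 10 genes taken by symbol from the deposited count tables: Muc2, Muc5ac, Muc5b, Muc6, Fcgbp, Clca1, Zg16, Tff3, Agr2 and Retnlb. All 10 were found among the 46882 genes listed in each table. The 16 bulk RNA libraries came from RedMUC298trTg mice aged 6 to 8 weeks, a reporter line whose goblet cells carry an mCherry-tagged MUC2 and glow red. Live epithelial cells were sorted by mCherry into 4 groups of 4 libraries. DC goblet cells were the mCherry-positive cells of the distal colon, and DC other cells were its mCherry-negative cells, labelled colonocytes. Si8 goblet cells were the mCherry-positive cells of section 8 of the small intestine, and Si8 other cells were its mCherry-negative cells, labelled enterocytes. All groups carry the reporter, and C57Bl6 cells served only to set the sort gate. Goblet cell RNA was purified on MinElute columns and RNA of the other cells on Mini columns, and the effect of the column cannot be told apart from that of the cell type. The labels do not name animals, so a p-value here measures no more than the spread among these samples, and that spread may be technical.

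Goblet cells make the mucus gel of the intestine. MUC2 is its building block: it forms dimers in the endoplasmic reticulum, is heavily O-glycosylated in the Golgi and assembles into a polymer that is packed in granules and expands on release. FCGBP, CLCA1 and ZG16 are secreted with it, TFF3 is a small trefoil peptide, AGR2 is a disulphide isomerase of the endoplasmic reticulum, and RETNLB is an antibacterial resistin-like protein. MUC5AC, MUC5B and MUC6 are the gel-forming mucins of the stomach, airways and glands.

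Total counts ranged from 11.9 to 18.5 M in DC goblet libraries, 14.9 to 17.7 M in DC other libraries, 37.4 to 40.5 M in Si8 goblet libraries and 30.8 to 41.1 M in Si8 other libraries. Mitochondrially encoded genes had 0 counts in every DC library and took 3.19% to 4.07% of the counts in Si8 goblet libraries and 6.07% to 8.36% in Si8 other libraries, without overlap. The differences between regions in this share and in depth cannot be told apart from region, and in Si8 the share also moved with the sort. A refit with scaling that left out mitochondrial genes called 9 mucus genes higher in goblet cells of each region. It called 5 between goblet cells of the regions. These numbers were the same in the main fit. Any other part of this share in the results was not tested. Levels are in CPM, the count scaled by the TMM-adjusted library total, given as mean ± SD over 4 libraries. Changes are log2 fold changes ± SE from edgeR's quasi-likelihood test, with Benjamini-Hochberg adjustment over 16001 genes and a threshold of 0.05.

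Muc6, Muc2, Muc5ac and Muc5b lie side by side on chromosome 7 (GRCm38, GENCODE M21), Muc6 on the minus strand and the other 3 on the plus strand. Muc6 spans 141633456 to 141655319, Muc2 141690340 to 141754693, Muc5ac 141788972 to 141819231 and Muc5b 141839070 to 141873084. The gaps between these neighbours are 35.0, 34.3 and 19.8 kb. Fcgbp lies elsewhere on chromosome 7 (28071236 to 28120862, plus strand), as does Zg16 (127050156 to 127087328, minus strand). Clca1 is on chromosome 3 (145003817 to 145032776, minus strand), Tff3 on 17 (31125306 to 31129646, minus strand), Agr2 on 12 (35992907 to 36004087, plus strand) and Retnlb on 16 (48816856 to 48818892, plus strand).

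RefSeq promoter windows, 250 bases before to 50 after the start on GRCm38.p6, were matched by symbol for 4 of the 10 genes. These 4 are shown because the other 6 had no match. All 4 were higher in goblet cells. Muc2 and Fcgbp differed between goblet cells of the regions, Agr2 was not called there, and Muc6 is a neighbour of Muc2 at trace level. Capitals mark matches, on either strand, to the E-box CAGCTG or to TTTATNG, the caudal-type homeobox letters; TGTTTAC, the forkhead letters, was also searched.
Muc2, chr7:141690090-141690389, plus strand: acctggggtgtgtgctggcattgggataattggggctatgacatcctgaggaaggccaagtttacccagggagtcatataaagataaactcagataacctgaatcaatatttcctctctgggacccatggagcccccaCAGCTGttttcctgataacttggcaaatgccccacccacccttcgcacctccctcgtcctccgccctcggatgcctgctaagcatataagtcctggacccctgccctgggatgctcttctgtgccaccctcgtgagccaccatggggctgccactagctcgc
Fcgbp, chr7:28070986-28071285, plus strand: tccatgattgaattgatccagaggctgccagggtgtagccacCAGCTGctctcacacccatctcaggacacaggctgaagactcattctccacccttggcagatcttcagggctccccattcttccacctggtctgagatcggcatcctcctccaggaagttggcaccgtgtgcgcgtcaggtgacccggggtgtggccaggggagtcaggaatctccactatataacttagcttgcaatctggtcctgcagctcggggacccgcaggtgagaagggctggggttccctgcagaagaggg
Agr2, chr12:35992675-35992974, plus strand: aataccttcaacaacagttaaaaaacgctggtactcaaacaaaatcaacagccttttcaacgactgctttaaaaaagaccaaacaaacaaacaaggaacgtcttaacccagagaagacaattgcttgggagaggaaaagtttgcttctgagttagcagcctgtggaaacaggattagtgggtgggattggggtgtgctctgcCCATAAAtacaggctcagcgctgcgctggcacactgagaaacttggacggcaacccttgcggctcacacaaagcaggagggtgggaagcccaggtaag
Muc6, chr7:141655344-141655643, minus strand: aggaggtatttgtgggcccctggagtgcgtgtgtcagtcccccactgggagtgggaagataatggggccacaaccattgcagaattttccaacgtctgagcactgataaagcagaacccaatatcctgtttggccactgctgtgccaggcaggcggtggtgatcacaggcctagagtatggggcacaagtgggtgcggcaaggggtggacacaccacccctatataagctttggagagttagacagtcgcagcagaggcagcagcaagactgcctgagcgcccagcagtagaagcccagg
CAGCTG stood 112 bases before the start of Muc2 and 208 before that of Fcgbp. TTTATNG stood once, on the minus strand as CCATAAA, 48 bases before the start of Agr2. The Muc6 window held none of the 3 motifs. Of 32851 RefSeq promoters of the same length, 16.3% held CAGCTG, 10.9% TTTATNG and 3.65% TGTTTAC. A match here is a description of letters and not of binding.

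In goblet cells against the other epithelial cells, mucus transcripts were higher in both regions. edgeR called 9 of 9 tested genes higher in DC goblet cells, where 27.8% of all genes were called higher, and 9 of 9 in Si8 goblet cells, where 33.1% were. The median log2 fold change of these 9 was 6.40 in DC and 7.19 in Si8, against 0.03 over all genes in each region. In a fit of the 2 DC groups alone, edgeR called 7 of them, and Muc5ac and Muc6 were not tested. The DC tests of Muc5ac and Muc6 thus depended on the Si8 libraries being in the fit. In both regions 26.7% of all genes had every goblet library above every other library. Muc5b had too few counts to pass the expression filter. Muc5ac, Muc6 and Retnlb had few or no counts in other cells and passed it on their goblet libraries. For them, being tested was thus not independent of being higher in goblet cells. Without the filter, edgeR called the same 9 genes in each region and did not call Muc5b. The 9 and their medians include Muc2. Muc2 is the gene whose reporter set the sort, and its counts may include reads of the reporter, so its difference is a check of the sort. In bulk samples, fewer cells of a type and less RNA per cell cannot be told apart.

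**Figure D1:**
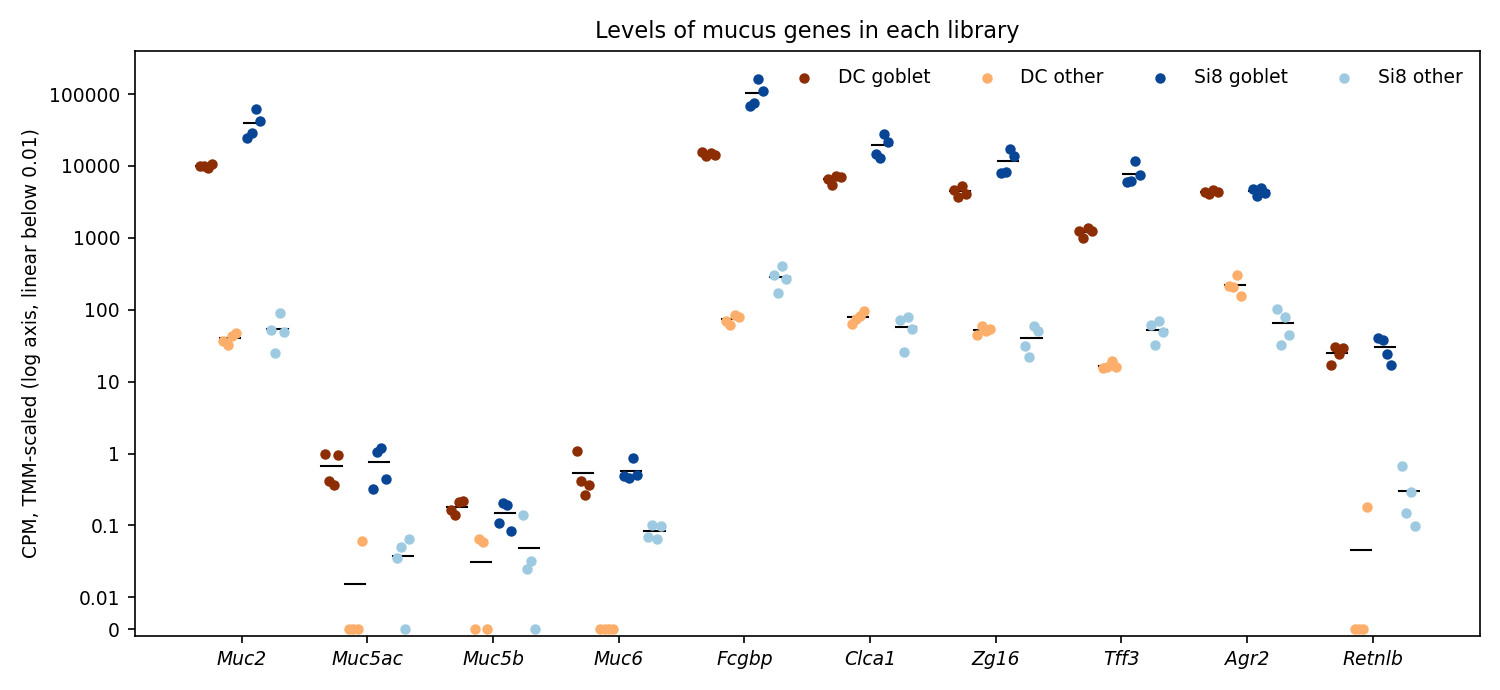
Level of each of the 10 genes in every library, in TMM-scaled CPM on a log axis that is linear below 0.01; points are libraries and bars are means of 4. Muc2 and Fcgbp stand highest in Si8 goblet cells, Agr2 and Retnlb overlap between goblet cells of both regions, and Muc5ac, Muc5b and Muc6 stay near or below 1 CPM.

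Muc2 had 10077, 10013, 9301 and 10708 CPM in DC goblet libraries 9, 11, 13 and 18, against 36.7, 32.3, 43.4 and 47.3 CPM in DC other libraries 10, 12, 14 and 17. It had 24120.1, 28718, 62787 and 42009 CPM in Si8 goblet libraries 2, 4, 6 and 8, against 51.6, 25.0, 90.1 and 49.4 CPM in Si8 other libraries 1, 3, 5 and 7. Goblet and other libraries were far apart in both regions, and the 4 DC goblet libraries lay close together while Si8 goblet library 6 was the highest. The log2 fold change was 7.97 ± 0.42 in DC (251.1-fold) and 9.51 ± 0.45 in Si8 (730.04-fold), with edgeR adjusted p of 6.25e-11 and 1.44e-11.

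Muc5ac, Muc5b and Muc6 were at trace level. Summed over 4 libraries, DC goblet cells had 47 counts of Muc5ac, 13 of Muc5b and 39 of Muc6, against 724499 of Muc2. The same sums in Si8 goblet cells were 107, 21 and 81, against 5499526 of Muc2. These counts were nonetheless unevenly spread between sorts. Muc5ac had 18, 9, 7 and 13 counts in the DC goblet libraries against 0, 0, 0 and 1 in the DC other libraries, and 12, 41, 38 and 16 counts in the Si8 goblet libraries against 1, 2, 0 and 2 in the Si8 other libraries. Every goblet library was above every other library of its region. From pooled counts the ratio was 47.3 in DC (95% exact interval 8.09 to 1908) and 19.8 in Si8 (8.24 to 62.3); these intervals cover counting error only. edgeR called both, with log2 fold changes of 5.08 ± 0.97 in DC and 4.13 ± 0.63 in Si8 (adjusted p = 1.82e-04 and 1.23e-05). The 1 count in DC other cells was in library 17. Without that library the Muc5ac ratio was 11.9 against a floor of 3 counts over the other 3 DC other libraries. The exact 95% lower limit was then 9.33, and the edgeR log2 fold change 7.14.

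Muc6 had 20, 9, 5 and 5 counts in the DC goblet libraries and 0 in each of the 4 DC other libraries. Set against a floor of 3 counts over the DC other group, its ratio of DC goblet to DC other cells was 13.1. The exact 95% lower limit of the ratio was 10.1. Library 9 held 20 of the 39 counts. Without it the ratio to this floor was 8.55 and the exact 95% lower limit 6.30. The edgeR log2 fold change was then 6.22, against 6.81 with all libraries. Si8 goblet libraries had 18, 18, 27 and 18 counts, against 2, 4, 2 and 3 in Si8 other libraries, a pooled ratio of 6.82 (95% exact interval 3.62 to 14.2). The groups did not overlap in either region. Muc5b had 3, 3, 4 and 3 counts in DC goblet libraries against 0, 1, 1 and 0 in DC other libraries. Its Si8 goblet counts were 4, 8, 6 and 3, against 4, 1, 1 and 0 in Si8 other libraries, and these overlapped. Without the expression filter, edgeR did not call Muc5b in DC (2.42 ± 0.97, adjusted p = 0.0516) or in Si8 (1.58 ± 0.71, adjusted p = 0.0782). Gastric foveolar markers other than Muc5ac were nearly absent: Tff1 had 0 counts in all 16 libraries, and Gkn1 and Gkn2 had at most 1 count in any library. Of the gland mucous cell markers other than Muc6, Tff2 had 10 to 11 counts in each DC goblet library, and Aqp5 had at most 3 counts in any library.

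Fcgbp encodes a very large protein of repeated von Willebrand D domains that is bound into the mucus. It was the most abundant of the 10 by counts in both goblet groups. It had 15862, 13785, 15145 and 14082 CPM in DC goblet libraries, against 69.7, 62.1, 85.0 and 78.8 CPM in DC other libraries. It had 67868, 75029.7, 161528 and 111660.0 CPM in Si8 goblet libraries, against 305, 169, 403 and 267 CPM in Si8 other libraries. Every Si8 goblet library exceeded every DC goblet library by a wide margin, and Si8 other libraries exceeded DC other libraries as well. The goblet fold was 199 in DC (7.64 ± 0.33, edgeR adjusted p = 7.68e-13) and 364 in Si8 (8.51 ± 0.35, edgeR adjusted p = 3.32e-13). Part of the Fcgbp sequence has a near copy in 9530053A07Rik, a gene that begins 8.60 kb downstream of it: the longest shared stretch was 1019 bp at 91.6% identity (blastn). Counts of 9530053A07Rik summed to 88 in DC goblet cells and 516 in Si8 goblet cells; how the counting split reads that fit both is not stated. None of the other 9 genes had a stretch of at least 100 bp at 90% identity in another gene.

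Clca1, a metalloprotease-like secreted protein of the mucus, had 6665, 5348, 7309 and 6990.1 CPM in DC goblet libraries, against 63.2, 75.3, 81.5 and 95.8 CPM in DC other libraries. It had 14675, 12994, 28199 and 21704 CPM in Si8 goblet libraries, against 72.0, 26.1, 78.1 and 53.9 CPM in Si8 other libraries. The 2 other-cell groups overlapped, whereas the goblet groups did not. Zg16, a lectin-like protein that binds Gram-positive bacteria, averaged 4413 ± 674 CPM in DC goblet cells against 52.2 ± 6.14 CPM in DC other cells, and 11882 ± 4438 CPM in Si8 goblet cells against 40.9 ± 17.4 CPM in Si8 other cells. Clca1 and Zg16 followed each other closely. Their goblet folds were 83.3 and 84.6 in DC and 337 and 291 in Si8. Clca1 to Zg16 count ratios averaged 1.499 ± 0.155 in DC goblet, 1.52 ± 0.233 in DC other, 1.64 ± 0.125 in Si8 goblet and 1.47 ± 0.561 in Si8 other libraries. On the strand opposite Zg16 the annotation places 2 overlapping genes, and the strand setting of the counting is not given in the sources used here.

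Tff3 had 1237, 1003, 1375 and 1261 CPM in DC goblet libraries, against 15.3, 16.05, 19.3 and 15.9 CPM in DC other libraries. It had 5910.1, 6158, 11541 and 7416 CPM in Si8 goblet libraries, against 60.7, 32.3, 70.5 and 48.6 CPM in Si8 other libraries. No Si8 library of either sort overlapped the DC libraries of that sort, and the Si8 values were the higher ones. The goblet fold was 73.3 in DC (6.20 ± 0.28) and 146 in Si8 (7.19 ± 0.28), with edgeR adjusted p of 2.76e-12 and 6.58e-13.

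Agr2 behaved differently. It had 4298, 4077, 4678 and 4313 CPM in DC goblet libraries, against 212, 206, 303 and 156 CPM in DC other libraries. It had 4736, 3808.5, 4959 and 4202 CPM in Si8 goblet libraries, against 101.5, 32.6, 78.3 and 45.1 CPM in Si8 other libraries. The goblet groups of both regions overlapped, and among other cells every DC library was above every Si8 library. The goblet fold was 19.8 in DC (4.31 ± 0.30, edgeR adjusted p = 2.88e-09) and 68.9 in Si8 (6.11 ± 0.33, edgeR adjusted p = 1.00e-10). Relative to library totals without TMM scaling, Agr2 took 0.502% ± 0.0315 of counts in DC goblet cells and 0.402% ± 0.0492 in Si8 goblet cells, and no DC library overlapped the Si8 ones.

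Retnlb, whose product is best known from colonic goblet cells, was low next to the others. It had 316, 645, 458 and 394 counts in DC goblet libraries, against 0, 0, 0 and 3 in DC other libraries. It had 1524, 1488, 755 and 610 counts in Si8 goblet libraries, against 19, 6, 9 and 3 in Si8 other libraries. As levels, these were 25.0 ± 5.77 CPM in DC goblet cells and 30.0 ± 11.3 CPM in Si8 goblet cells, with the 2 groups overlapping. Pooled counts gave a goblet to other ratio of 608 in DC (95% exact interval 208 to 2953) and 110 in Si8 (79.4 to 156). All 3 counts of DC other cells were in library 17. Without it the Retnlb ratio in DC was 460.3 against the same floor, with an exact 95% lower limit of 374. The edgeR log2 fold change was then 12.37, against 8.99 with all libraries. A fitted value for a gene at 0 depends on the prior count and is no bound. Si8 other library 1 held 19 of 37 counts, and without it the Si8 ratio was 178 (112 to 300.4).

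Together the 10 genes took 4.78% ± 0.261 of all counts in DC goblet libraries and 0.0518% ± 0.00845 in DC other libraries. In Si8 they took 16.5% ± 4.73 in goblet libraries and 0.0488% ± 0.0155 in other libraries. The Si8 goblet libraries 2, 4, 6 and 8 gave 12.5%, 13.1%, 22.7% and 17.8%, all above the DC goblet range of 4.43% to 5.05%. Muc2 and Fcgbp alone made up 2.86% ± 0.0798 of DC goblet counts and 12.7% ± 3.91 of Si8 goblet counts.

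**Figure D2:**
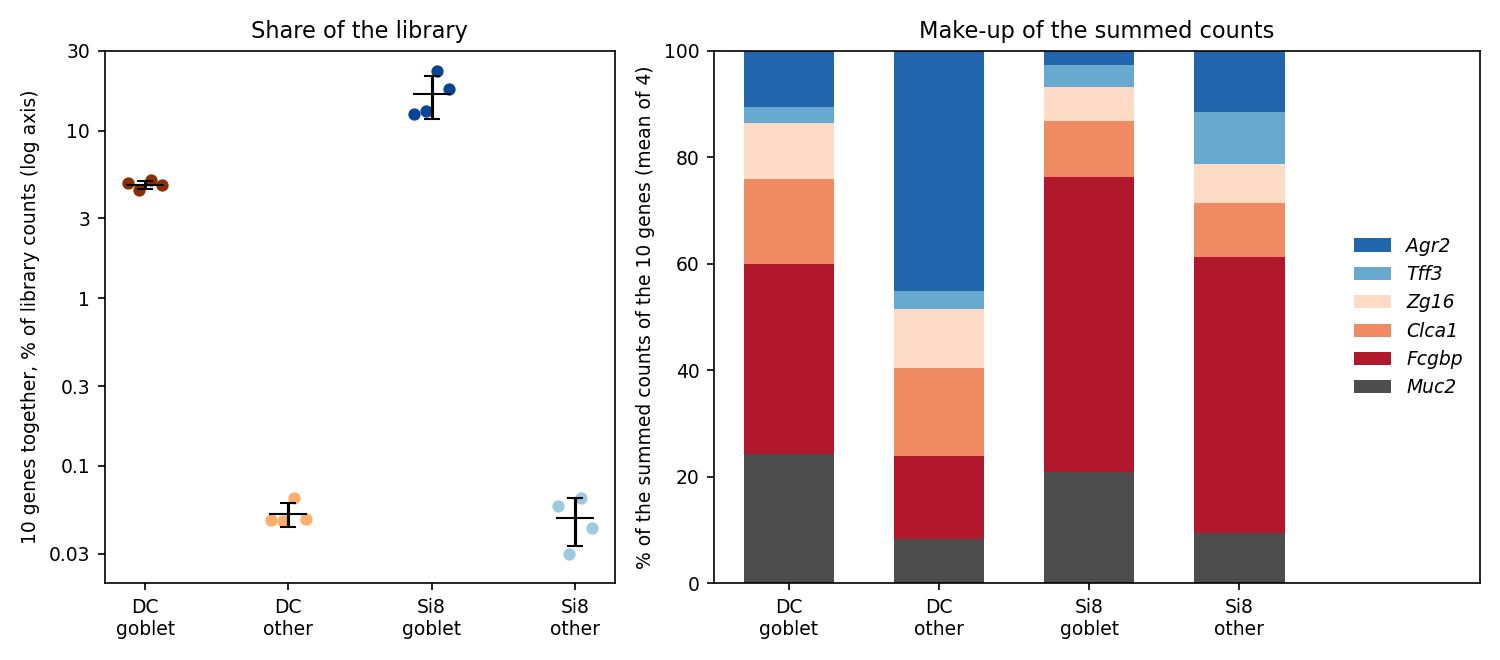
Left, percent of library counts taken by the 10 genes together (log axis), with points for libraries and bars for mean ± SD of 4; right, mean make-up of their summed counts in each group, without the 4 genes too rare to see. DC goblet libraries span 4.43% to 5.05% and Si8 goblet libraries 12.5% to 22.7%; Fcgbp is the largest part except in DC other cells, where Agr2 is.

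The make-up of these counts does not depend on library totals. Fcgbp was 35.6% ± 1.36 of them in DC goblet cells and 55.4% ± 0.963 in Si8 goblet cells, a log2 ratio difference (DC minus Si8) of −0.64 ± 0.03. Muc2 was 24.3% ± 2.20 in DC goblet cells and 20.8% ± 1.15 in Si8 goblet cells, with overlap. Agr2 was 10.5% ± 0.355 in DC goblet cells and 2.60% ± 0.902 in Si8 goblet cells, a difference of 2.08 ± 0.25. Clca1 (15.9% ± 1.35 in DC, 10.5% ± 0.954 in Si8), Zg16 (10.6% ± 1.15 in DC, 6.39% ± 0.413 in Si8) and Retnlb (0.0611% ± 0.0167 in DC, 0.0194% ± 0.0128 in Si8) also held larger parts in DC goblet cells, and Tff3 a smaller one (2.94% ± 0.234 in DC, 4.25% ± 0.472 in Si8). The shifts of these 6 genes, Fcgbp, Agr2, Clca1, Zg16, Retnlb and Tff3, each had a two-sided exact permutation p of 0.0286, the smallest that 4 against 4 libraries can give, and 0.0333 after adjustment over 7 genes, and no DC library overlapped the Si8 ones. For Muc2 the exact permutation p was 0.0571. The parts add up to a whole, so the larger Fcgbp part in Si8 goblet cells by itself lowers the other parts there. The 6 shifts are therefore not separate results, and the make-up without Fcgbp was not tested.

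The make-up in other cells was set beside that in goblet cells in a comparison added after the data were seen. These parts are tied to one another in the same way. The reporter of Muc2 set the sort, so a larger Muc2 part in goblet cells is bound to the gate and lowers the other parts there. The make-up between sorts without Muc2 was not tested. In DC, Agr2 was 10.5% ± 0.355 of the summed counts in goblet cells and 45.1% ± 7.32 in other cells, and Muc2 was 24.3% ± 2.20 in goblet cells and 8.37% ± 1.55 in other cells. Fcgbp was 35.6% ± 1.36 in DC goblet cells and 15.4% ± 1.67 in DC other cells. All 3, and Tff3, had an exact permutation p of 0.0286 (adjusted 0.0429), whereas for Clca1 and Zg16 it was 0.8286. In Si8, Fcgbp was 55.4% ± 0.963 in goblet cells and 51.9% ± 2.50 in other cells (exact permutation p = 0.0571). There Muc2, Tff3 and Agr2 did not overlap between sorts, but their adjusted exact permutation p was 0.0571. The Fcgbp to Muc2 count ratio ran from 1.32 to 1.63 in DC goblet, 1.67 to 1.96 in DC other, 2.57 to 2.81 in Si8 goblet and 4.48 to 6.77 in Si8 other libraries. The Agr2 to Muc2 ratio ran from 0.403 to 0.503 in DC goblet, 3.30 to 6.97 in DC other, 0.0790 to 0.196 in Si8 goblet and 0.869 to 1.96 in Si8 other libraries.

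What was left in the other cells was unequal between genes. Muc2 is the gene whose reporter set the sort, and its counts may include reads of the reporter. Its low value here is therefore a check of the sort. In DC other cells, Muc2 stood at 0.398% ± 0.0668 and Fcgbp at 0.502% ± 0.0684 of the DC goblet mean. Clca1 stood at 1.200% ± 0.206, Zg16 at 1.18% ± 0.139 and Tff3 at 1.36% ± 0.149, and Agr2 at 5.05% ± 1.41. In Si8 other cells Muc2 was again lowest, at 0.137% ± 0.0682 of the Si8 goblet mean. Fcgbp followed at 0.275% ± 0.0932, Clca1 at 0.297% ± 0.1203, Zg16 at 0.344% ± 0.147, Tff3 at 0.684% ± 0.212 and Agr2 at 1.45% ± 0.709. In DC, Agr2 lay above the others by more than the spread, while Clca1, Zg16 and Tff3 lay within one another's spread.

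**Figure D3:**
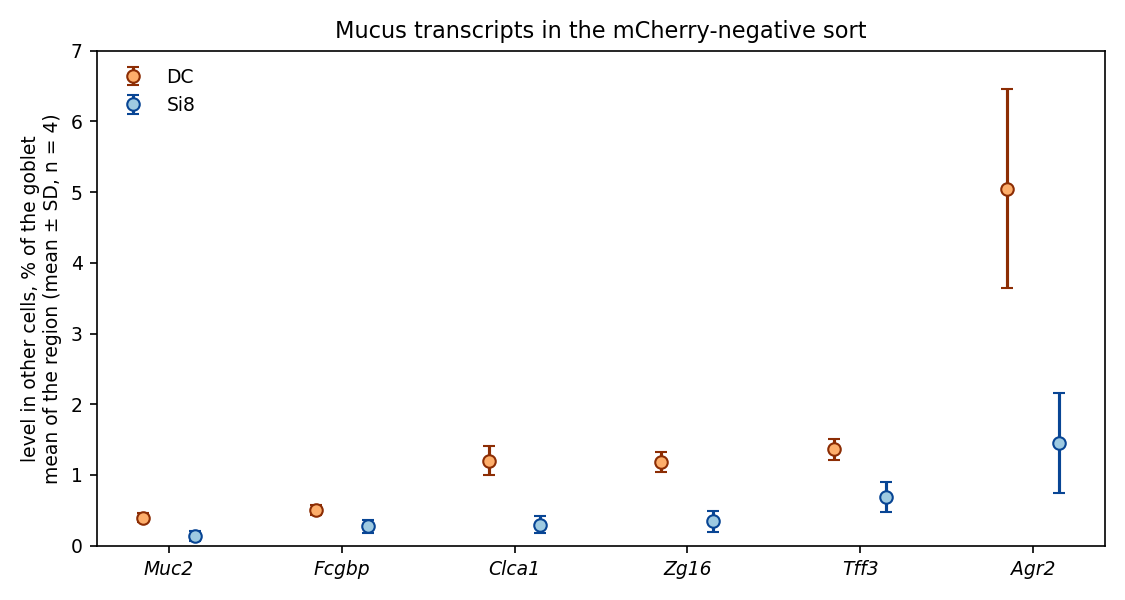
Level in other cells as a percentage of the goblet mean of the same region, for the 6 abundant genes; points are means of 4 libraries and bars are SD. Agr2 has the highest value in both regions, 5.05% in DC and 1.45% in Si8, and Muc2 the lowest, 0.398% and 0.137%. The reporter of Muc2 set the sort, so its low value is a check of the sort.

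Goblet cells of the distal colon had lower levels of 5 mucus genes than goblet cells of Si8, and the other 4 tested genes were not called. The share of all genes called lower in this comparison was 31.5%, and called higher 30.6%. Fcgbp was lower, with a log2 fold change of −2.82 ± 0.27 (7.07-fold, edgeR adjusted p = 3.63e-08) and so was Tff3, at −2.67 ± 0.23 (6.36-fold, edgeR adjusted p = 1.83e-08). Muc2 was lower at −1.97 ± 0.32 (3.93-fold, edgeR adjusted p = 5.26e-05), Clca1 at −1.56 ± 0.29 (2.95-fold, edgeR adjusted p = 1.73e-04) and Zg16 at −1.43 ± 0.28 (2.69-fold, edgeR adjusted p = 3.22e-04). For these 5, none of the 4 DC libraries reached the lowest Si8 library, a pattern that 28.9% of all genes had. The median over all genes was −0.02.

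Agr2, Retnlb, Muc5ac and Muc6 were not called between goblet cells of the regions. Agr2 differed by −0.028 (95% interval −0.59 to 0.53, edgeR adjusted p = 0.935) and Retnlb by −0.26 (−0.85 to 0.32, edgeR adjusted p = 0.423). Muc5ac differed by −0.19 (−1.09 to 0.71) and Muc6 by −0.08 (−0.89 to 0.73). The changes of all 5 called genes lie outside these 4 intervals. Pooled Muc5ac counts gave a DC to Si8 ratio of 1.11 (95% exact interval 0.767 to 1.57).

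**Figure D4:**
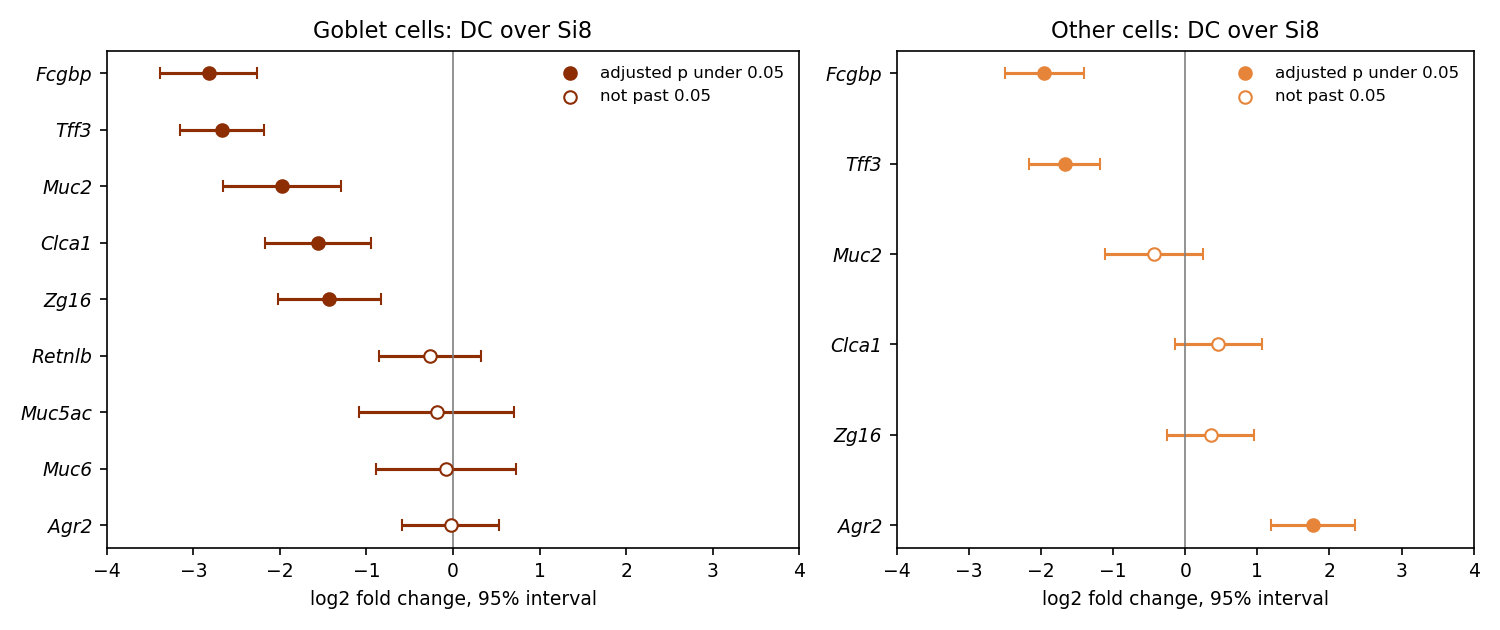
Log2 fold change of DC over Si8 with its 95% interval, in goblet cells (left, 9 genes) and in other cells (right, 6 genes, without the 3 whose other-cell counts are near 0); filled points passed an edgeR adjusted p of 0.05. In goblet cells 5 genes are lower in DC; in other cells Fcgbp and Tff3 are lower and Agr2 is higher in DC.

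Among other cells, 1 of 9 tested genes was called higher in DC, where 33.3% of all genes were, and 3 were called lower, where 33.6% of all genes were. Agr2 was the higher one, by 1.77 ± 0.28 (3.41-fold, edgeR adjusted p = 2.56e-05), with 219 ± 61.1 CPM in DC other cells and 64.4 ± 31.4 CPM in Si8 other cells. Fcgbp was lower at −1.95 ± 0.26 (3.87-fold, edgeR adjusted p = 2.36e-06) and Tff3 at −1.67 ± 0.23 (3.19-fold, edgeR adjusted p = 5.53e-06). Muc6 was also called lower, on 0 counts in DC other cells and 11 in Si8 other cells (edgeR adjusted p = 0.0219). Libraries of the regions did not overlap for 29.7% of all genes in the higher and 29.9% in the lower direction, and did not overlap for these 4. Muc2, Clca1 and Zg16 were not called, with values of −0.44, 0.46 and 0.35 and intervals that include 0. The comparisons are not independent, since each group enters both a goblet comparison and a region comparison.

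The goblet effect was smaller in DC than in Si8 for 5 of 9 genes by the test of the difference itself, where 16.5% of all genes were called in that direction and 15.6% in the opposite one. The difference was −2.02 ± 0.40 for Clca1, −1.80 ± 0.38 for Agr2 and −1.78 ± 0.40 for Zg16 (edgeR adjusted p = 9.62e-04, 0.00153 and 0.00233). It was −1.54 ± 0.45 for Muc2 and −0.997 ± 0.316 for Tff3 (edgeR adjusted p = 0.0141 and 0.0220), and these 2 were not called without the expression filter or without Si8 goblet libraries 6 and 8. Fcgbp, at −0.87 ± 0.35, had an edgeR adjusted p of 0.0704. The groups behind a like difference were not alike: for Agr2 the goblet levels of the regions overlapped and the other cells were higher in DC, while for Clca1 and Zg16 the goblet level was lower in DC and the other cells were not called.

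Paneth cell markers were higher in goblet sorts, at very different levels in the regions. Of 8 listed genes 7 were in the table. They summed to 13159 to 35736 CPM in Si8 goblet libraries against 741 to 1991 CPM in Si8 other libraries, and edgeR called 7 of 7 higher in Si8 goblet cells, where 33.1% of all genes were. In DC the sum was 21.8 to 25.2 CPM in goblet and 0.525 to 1.13 CPM in other libraries, with Defa24, Defa17 and Defa22 at 0 in both, and 4 of 7 were called higher in DC goblet cells, where 27.8% of all genes were. There Lyz1, Mmp7 and Itln1 averaged 1.65, 0.604 and 2.65 CPM, so most of the DC goblet sum came from the remaining marker, Ang4. For the difference of goblet effects between regions, edgeR called 0 of 7 in either direction (1 had an unadjusted p under 0.05) and DESeq2 called 5 of 7. These 7 include Defa24, Defa17 and Defa22, which could not be called in DC. With 0 counts in both DC groups, their DC goblet effect and its difference from Si8 have no defined value. Si8 goblet libraries 2, 4, 6 and 8 had 13159, 24731, 18418 and 35736 CPM of these markers, while library 6 had the most mucus transcripts. The part of these cells in the Si8 values was not tested. Colonocyte markers summed to 186 to 276 CPM in DC goblet libraries against 6501 to 7212 CPM in DC other libraries, and small intestinal absorptive markers to 1056 to 2017 CPM in Si8 goblet libraries against 8895 to 17625 CPM in Si8 other libraries.

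Levels can be compared between genes only per length. In CPM per kb of annotated exon, DC goblet cells had Zg16 first at 3510.5 ± 536, overlapping Agr2 at 3363 ± 193. Tff3 (2473 ± 316), Clca1 (1742 ± 228), Muc2 (1407 ± 80.7) and Fcgbp (1402 ± 91.5) followed, where Clca1 overlapped Muc2 and Muc2 overlapped Fcgbp, while Tff3 overlapped neither Agr2 nor Clca1. In Si8 goblet cells, Tff3 came first at 15733 ± 5289.6 CPM per kb. Fcgbp stood at 9909.6 ± 4084, Zg16 at 9453 ± 3531, Muc2 at 5529 ± 2432, Clca1 at 5135 ± 1848 and Agr2 at 3429 ± 403, each overlapping the next. Agr2 was thus second in DC goblet cells and sixth in Si8 goblet cells at nearly the same level. Retnlb stood far lower in both, at 35.9 ± 8.28 in DC and 43.1 ± 16.2 in Si8 goblet cells, and Muc5ac, Muc6 and Muc5b were all below 0.1 CPM per kb. Annotated exons of Muc2 sum to 7127 bp and its longest transcript to 2926 bp; on the latter length Muc2 is at 3426 CPM per kb in DC goblet cells and 13468 in Si8 goblet cells. The order depends on this choice: by longest transcript Zg16 is at 6103 in DC goblet cells and 16434 in Si8 goblet cells, and in Si8 it then stands above Tff3 at 15733.

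In other cells the order differed. Agr2 led in DC other cells with 170 ± 47.3 CPM per kb, above Zg16 at 41.5 ± 4.89 without overlap. In Si8 other cells Tff3 led with 108 ± 33.4 CPM per kb, overlapping Agr2 at 49.9 ± 24.3. Muc2, whose reporter set the sort, was sixth in both groups, at 5.60 ± 0.940 in DC and 7.58 ± 3.77 in Si8.

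The genes whose levels over the 16 libraries were most like the mean of Fcgbp, Clca1, Zg16, Tff3 and Agr2 were Fer1l6, Plcb1, Capn9, Fam117a, Id4, Txndc5, Rab27a and Lrrc26. Their Pearson correlations ran from 0.998 down to 0.992, among 10070 genes. The 16 libraries share the 4 groups, so these values mostly follow the sort. Muc2, which was not in the mean, had 0.999, and Retnlb had 0.9749. Agr2, although part of the mean, ranked 93rd at 0.956. Fer1l6 averaged 327 CPM in DC goblet, 1.78 in DC other, 845 in Si8 goblet and 1.82 in Si8 other cells.

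Other secreted proteins of the mucus layer did not share one direction. Of 21 tested, 11 were called higher and 8 lower in DC goblet cells, and 11 higher and 6 lower in Si8 goblet cells, with medians of 0.27 and 0.42. Over all genes, 27.8% were called higher and 27.9% lower in DC goblet cells, and 33.1% higher and 31.8% lower in Si8 goblet cells. In DC, Spink4, a Kazal-type protease inhibitor gene, had 1834 ± 154 CPM in goblet cells and 7.61 ± 3.37 in other cells. Lypd8, whose product binds flagellated bacteria, was 983 ± 77.4 CPM in DC goblet cells and 6020.3 ± 373 in DC other cells. Between goblet cells of the regions, 7 of 21 were called higher and 11 lower in DC, beside 30.6% and 31.5% of all genes. Reg3b and Reg3g, antibacterial lectins, were at 0.438 ± 0.385 and 0.484 ± 0.187 CPM in DC goblet cells, against 7448 ± 2214 and 6161 ± 2069 CPM in Si8 goblet cells. In Si8 other cells their means were higher still, at 16793 ± 2820 and 9615 ± 2288 CPM. Sval1 went the other way, at 1049 ± 190 CPM in DC goblet cells and 22.3 ± 5.19 in Si8 goblet cells.

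Paralogues of the 10 genes were mixed. Of 10 tested, 4 were higher and 5 lower in DC goblet cells, and 6 higher and 2 lower in Si8 goblet cells. The shares of all genes were 27.8% higher and 27.9% lower in DC, and 33.1% higher and 31.8% lower in Si8. Clca4a, a relative of Clca1, had 45.4 ± 6.64 CPM in DC goblet cells and 1106 ± 68.7 in DC other cells, opposite to Clca1.

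Genes that assemble and regulate mucins were mostly higher in goblet cells: 21 of 27 in each region, with 5 lower. Of all genes, 27.8% were called higher and 27.9% lower in DC goblet cells, and 33.1% higher and 31.8% lower in Si8 goblet cells. Atoh1, which specifies the secretory lineage, had 309 ± 35.1 CPM in DC goblet cells and 1.86 ± 0.195 in DC other cells. Ern2, an unfolded-protein sensor of mucous cells, had 254 ± 40.7 CPM in Si8 goblet cells and 3.22 ± 1.44 in Si8 other cells. Between regions, 15 of 27 were called higher and 3 lower in DC goblet cells, beside 30.6% and 31.5% of all genes. B3gnt6, the core 3 O-glycan synthase, had 48.6 ± 5.21 CPM in DC goblet cells and 0.898 ± 0.245 in Si8 goblet cells. Tgm3 and Tgm2, transglutaminases that crosslink proteins, ran in opposite directions: Tgm3 was 76.0 ± 15.5 CPM in DC goblet and 0.0283 ± 0.0229 in Si8 goblet cells, and Tgm2 was 5.70 ± 0.407 in DC goblet and 183 ± 14.7 in Si8 goblet cells. Both had higher means in the other cells of those regions: Tgm3 2263 ± 187 CPM in DC other and Tgm2 488 ± 86.8 CPM in Si8 other cells. The part of other cells in the goblet values was not tested.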

How the data were processed

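The authors deposited raw read counts per gene for each region, and a normalized signal, which equalled the deposited count divided by a size factor in all 519072 values (tolerance 0.001). Per the submitters' processing notes, the build was mm10 and the tools were STAR 2.4.0f, HTSeq 0.6.1p1, FastQC 0.11.2 and DESeq2 1.14; no parameter, strand included, is given in these sources. Testing was by edgeR 4.0.16 (R 4.3.3; TMM, filterByExpr, robust quasi-likelihood F test, 1 fit over 4 groups, common biological coefficient of variation 0.128), which left 16001 genes; 4 entries with repeated symbols were left out. No replicates were near-identical (lowest chi-square per degree of freedom 4.22). Exact tests and intervals used SciPy 1.17.1, and sequence sharing used blastn 2.17.0. Lengths and positions come from GENCODE M21. The fits were tested on simulated data with small, balanced changes in few genes. That simulation does not cover changes as large or as many as those here. Alternatives were DESeq2 1.42.0, other scaling, no filter, 2 groups alone and leaving out libraries. All 10 members are named; list examples are the 2 largest and 2 smallest called changes at 10 CPM or more. Correlations used log2(CPM + 0.5). The members and lists were chosen with earlier results of these data known.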

Additional observations from a re-analysis of the deposited data

Results flagged for a closer look

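Muc6 in Si8 goblet library 6 stood at 0.862 CPM, apart from the other 3 libraries of its group; it had 27 counts there and 18 in each of the others. It was the 1 such library among 34 groups examined, and chance alone marks about 1 group in 20.

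The goblet effect differed between regions by the edgeR test of the difference for 5 genes, as DC minus Si8 on the log2 scale: −2.02 for Clca1, −1.80 for Agr2, −1.78 for Zg16, −1.54 for Muc2 and −0.997 for Tff3. Each goblet effect was the smaller one in DC. The part of Paneth cell RNA in the Si8 goblet sort was not tested.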

How the results depend on the processing

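The goblet against other calls and the 5 calls between goblet cells of the regions held under every alternative that tested the gene. With the 2 DC groups alone, Muc5ac and Muc6 were not tested. Muc6 passed the filter in 8 of the 16 fits that left out 1 library. For the difference of goblet effects, 5 genes were called, but 3 without the filter (Muc2 −1.57, adjusted p = 0.0590; Tff3 −1.03, adjusted p = 0.0827; edgeR) and 3 without Si8 goblet libraries 6 and 8, an alternative added after seeing the data (Muc2 −0.96, adjusted p = 0.0977; Tff3 −0.64, adjusted p = 0.103; edgeR). The cause was not tested. Leaving out 1 library at a time gave 5 to 6. Fcgbp joined them without DC other library 12 (−1.02), Si8 goblet library 2 (−1.03) or 4 (−0.99), or Si8 other library 5 (−1.07), and Muc6 without DC goblet library 13 (4.38).

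Between goblet cells of the regions, values near 0 changed sign: leaving out libraries gave −0.072 to 0.030 for Agr2, −0.46 to 0.11 for Muc5ac and −0.70 to 0.15 for Muc6, and Agr2 was 0.019 without Si8 goblet libraries 6 and 8, where Retnlb was called (−0.66, edgeR adjusted p = 0.0382). The log2 difference (DC goblet minus Si8 goblet) of Muc2's part of the summed counts was 0.22 in the main setting and −0.11 with counts per kb. Between other cells, Muc2 was called without Si8 other library 3 (−0.66) and Retnlb with DESeq2 (−2.77) and without Si8 goblet libraries 6 and 8 (−2.57, edgeR adjusted p = 0.0408). Of the values per length, 13 of 40 moved with the longest transcript in place of all exons. Between goblet cells of the regions, the median of all genes was −0.02 in the main fit and −0.04 with RLE size factors in edgeR. With DESeq2 it was 0.24, but DESeq2 was run without the expression filter. Its median therefore covers other genes and does not measure a change of scaling alone. No paired analysis was run, because each library has its own number and the labels name no animals. Whether goblet and other libraries of a region came from the same animals is not stated. The tests may therefore ignore a pairing. Depth limits Muc5ac, Muc5b and Muc6, which had at most 41 counts per library.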
